A study of Caenorhabditis elegans with 2 samples.

Results

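Cyclins and cyclin-dependent kinases (CDKs) drive the cell cycle, and E2F-DP transcription factors control many of the genes that act in it. This account covers the 10 Caenorhabditis elegans genes for the cyclins and CDKs of the G1, S and M phases, chosen by symbol from the 19973 nuclear protein-coding genes of the WBcel235 (ce11) annotation. The G1 genes were cyd-1 and cdk-4, the genes of S phase and its entry were cye-1, cdk-2 and cya-1, and the M phase genes were cyb-1, cyb-2.1, cyb-2.2, cyb-3 and cdk-1. Chromatin immunoprecipitation and sequencing (ChIP-seq) was done for DPL-1, the worm DP protein, in whole L1 larvae, the first larval stage. Per the labels, the animals were of strain OP105, of mixed sex and unknown age, and carried the unc119(ed3) mutation and the transgene wgIs105, in which dpl-1 is joined to TY1, EGFP and FLAG tags beside an unc119 copy. The 2 samples were biological replicates of this 1 group, so no condition was compared. No animals without the transgene, and none labelled as mutant for dpl-1, were analysed. The labels do not give the promoter of the transgene, name no mutation of the native dpl-1 gene, and mention a possible control experiment that was not analysed here.

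DP proteins bind DNA as partners of E2F proteins, and in worms DPL-1 acts with EFL-1 and the retinoblastoma homologue LIN-35 in the DREAM complex, a repressor of cell cycle genes. Cyclin D with CDK-4 acts in G1 and counters LIN-35, cyclin E with CDK-2 brings cells into S phase, A-type cyclins act in S phase and G2, and B-type cyclins with CDK-1 drive mitosis. Many cells of an L1 larva are arrested or differentiated while others divide. In whole animals, binding in fewer cells and weaker binding in each cell cannot be told apart.

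The peak summits of the 3 bound M phase genes, and of the G1 gene closest to the threshold, are shown first. Each line gives 75 bases on either side of the summit on the strand of the gene, 5′ to 3′, from the WBcel235 genome of RefSeq. Capitals mark matches, on either strand, to the E2F motif or to the CHR motif, the cell cycle genes homology region. The E2F motif was searched as TTCCCGC, also with its middle letters changed to give TTCGCGC, with the other order of these letters, which gives TTGCCGC, and in the form spelled TTGGCGC. The CHR motif was searched as TTTGAA and in the other spelling TTCGAA. Matches of the same or of both motifs may overlap. The cyb-1 stretch is chrIV:10734634-10734784, the cyb-3 stretch chrV:15395041-15395191, the cdk-1 stretch chrIII:9747282-9747432 and the cyd-1 stretch chrII:12980124-12980274, all on the plus strand. The capitals in the cyb-1 stretch are an E2F match, and those in the other 3 are CHR matches. The summits of cye-1 and cdk-2, which have E2F matches near them too, are not printed.
cyb-1: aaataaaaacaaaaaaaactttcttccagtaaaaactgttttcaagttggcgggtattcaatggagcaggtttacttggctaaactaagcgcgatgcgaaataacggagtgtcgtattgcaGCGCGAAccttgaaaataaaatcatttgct
cyb-3: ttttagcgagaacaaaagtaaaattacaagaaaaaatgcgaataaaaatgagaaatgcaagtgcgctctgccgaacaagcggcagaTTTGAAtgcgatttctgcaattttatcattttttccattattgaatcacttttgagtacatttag
cdk-1: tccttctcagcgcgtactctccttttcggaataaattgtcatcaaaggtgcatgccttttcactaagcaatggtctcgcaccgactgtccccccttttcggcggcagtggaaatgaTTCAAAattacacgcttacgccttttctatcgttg
cyd-1: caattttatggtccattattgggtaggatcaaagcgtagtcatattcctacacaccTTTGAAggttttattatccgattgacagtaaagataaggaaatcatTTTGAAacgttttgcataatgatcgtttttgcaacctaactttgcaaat

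Tagged DPL-1 occupied the promoters of 5 of the 10 genes, namely cye-1, cdk-2, cyb-1, cyb-3 and cdk-1. A gene was called bound when a peak summit lay in a promoter window that starts 1000 bp upstream of a transcript's 5′ end and stops 200 bp downstream of it. The peaks were those that the authors kept by their irreproducible discovery rate (IDR), which scores how well peak ranks repeat between replicates. Of all protein-coding genes, 14.3% were bound by the same rule. The 2797 strongest peaks of replicate 1, as many as the IDR list holds, gave the same 5 genes, beside 14.4% of all genes, and those of replicate 2 gave the same 5 beside 13.8%. By phase, 0 of 2 G1 genes, 2 of 3 S genes and 3 of 5 M genes were bound. The placing of cya-1 with the S genes follows the usual role of A-type cyclins, and its phase in worms was not checked. Without it 2 of 2 S genes were bound, and placed with a later phase it would add an unbound gene there. With so few genes in each phase, chosen with results of these data known, no test was made between phases. The 5 bound genes had a median signal of 183.4 for their strongest peak, against 95.1 over all 2866 bound protein-coding genes, and 4 of the 5 lay above that median. The signal is the peak strength given by the authors' caller on a scale that is not stated, so ranks and not levels are set side by side between lists.

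**Figure D1:**
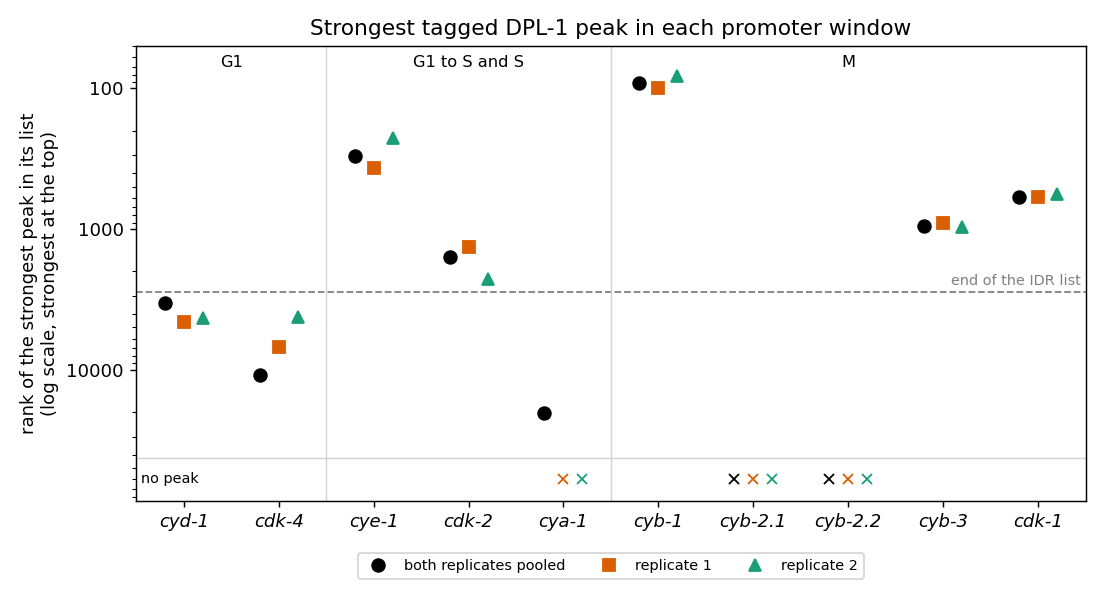
Rank of the strongest peak in the promoter window of each gene (log axis, strongest at the top) in the pooled relaxed list and in the relaxed list of each replicate, with crosses where a list held no peak in the window. The bound genes cye-1, cdk-2, cyb-1, cyb-3 and cdk-1 rank above the end of the IDR list (rank 2797) in all 3 lists, and the G1 genes cyd-1 and cdk-4 rank below it in all 3.

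The G1 genes lay below the threshold. For cyd-1, the only D-type cyclin gene among the members, the strongest peak in the window had its summit at II:12980199, in intergenic sequence 392 bp upstream of the 5′ end. Its signal was 24.9 in the pooled list, below the lowest IDR signal of 30.3, and its rank there was 3324. The same site ranked 4596 in replicate 1 (signal 12.9) and 4311 in replicate 2 (signal 8.62), and the 2 summits lay 4 bp apart. The cyd-1 site was thus found at the same place in both replicates, outside the IDR list, while cdk-2 was the bound gene nearest the threshold on the inside. The deposited −log10 q value of the cyd-1 site was 1.85 in the pooled list, 1.15 in replicate 1 and 1.97 in replicate 2, whereas IDR peaks had at least 3.26.

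For cdk-4, which encodes the kinase partner of cyclin D, the strongest peaks of the 3 lists lay at different places. The strongest pooled peak ranked 10942 (signal 12, −log10 q 0.142), at X:13519133 and 222 bp upstream of the 5′ end. The strongest peak of replicate 1 ranked 6868, with a summit 37 bp downstream of the 5′ end, and that of replicate 2 ranked 4185, with a summit 351 bp upstream. These strongest summits of the replicates lay 388 bp apart. Replicate 1 held another peak, of rank 7846 and signal 9.88, with its summit 163 bp upstream of cdk-4 and 59 bp from the pooled summit. The window of cdk-4 also lies over that of F18H3.1, a divergent gene whose 5′ end is on the far side of all these summits.

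Of the S genes, cye-1 had the strongest site. The cyclin E gene cye-1 carried a peak with its summit at I:6780260, in intergenic sequence, with a signal of 344.3 and rank 305 in the pooled list. Replicate 1 placed it at rank 366 (signal 190.3) and replicate 2 at rank 226 (signal 151.3), with summits 17 bp apart. Among all bound protein-coding genes, the cye-1 signal stood at percentile 85.2. The summit lay 539 bp upstream of cye-1 but 109 bp upstream of pqn-21, the divergent neighbour, so that the site is nearer to the neighbour's 5′ end.

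The kinase gene cdk-2 carried 3 IDR peaks, which none of the other members did. Only 5 of the 2866 bound protein-coding genes (0.174%) had 3 or more IDR peaks in their windows. The 2 transcript starts of cdk-2 gave it 2402 bp of window, against 1201 to 1427 bp for the other bound members, and the share was not adjusted for this length. The strongest of the 3 had its summit at I:3409946, 67 bp upstream of the 5′ end, with a pooled signal of 61.2 and rank 1582. Replicate 1 placed this site at rank 1341 and replicate 2 at rank 2272, with summits 2 bp apart. Another lay 474 bp upstream, at I:3409539, with a signal of 40.8 and rank 2200. The last, at I:3412445 with a signal of 36.9 and rank 2374, lay in an intron of cdk-2, 567 bp upstream of the internal 5′ end of another cdk-2 transcript. It ranked 2917 in replicate 1, outside the 2797 strongest peaks, and 2321 in replicate 2. No peak of cdk-2 lay in the window of another protein-coding gene, whereas the other 4 bound members shared theirs. The strongest cdk-2 signal was the lowest of the 5 bound genes, at percentile 31.5 of all bound protein-coding genes, and it lay below the IDR median of 71.5.

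The A-type cyclin gene cya-1 had no replicated site. Its window held 1 pooled peak, at III:9109384, with a signal of 9.16 and rank 20402, close to the lowest signal of the pooled list (8.48). Neither replicate's list held a peak in the window. The nearest IDR summit lay 5064 bp away from the 5′ end. Within the S genes, cye-1 and cdk-2 were thus inside the IDR list and cya-1 was near the bottom of the relaxed one.

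The M phase genes held the strongest site of all members. At cyb-1, a B-type cyclin gene, the summit at IV:10734709 had a signal of 690.9 and rank 91 in the pooled list. Replicate 1 placed it at rank 100 (signal 419.5) and replicate 2 at rank 82 (signal 270.7), and their summits lay 4 bp apart. Its signal stood at percentile 95.8 of bound protein-coding genes. The summit lay 507 bp upstream of cyb-1 and 121 bp upstream of orc-5, a divergent gene that encodes a subunit of the origin recognition complex.

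The mitotic kinase gene cdk-1 carried a summit at III:9747357, 115 bp upstream of its 5′ end, with a signal of 183.4 and rank 589. Replicate 1 gave rank 590 (signal 114.1) and replicate 2 rank 560 (signal 72.6), with summits 11 bp apart. This summit lay between cdk-1 and the divergent gene iff-1, which encodes a homologue of the translation factor eIF-5A, and was 164 bp upstream of iff-1. Of the 4 shared summits of members, that of cdk-1 was the one nearer to the member than to its neighbour.

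At cyb-3, which encodes the B3-type cyclin, the summit at V:15395116 had a signal of 110.3 and rank 944. Replicate 1 gave rank 906 (signal 70.9) and replicate 2 rank 962 (signal 42.2), with summits 10 bp apart. The summit lay 580 bp upstream of cyb-3 and 155 bp upstream of the divergent gene T06E6.1. Replicate 2 held another peak 150 bp upstream of cyb-3, with a signal of 12.9 and rank 2770, and neither the pooled list nor replicate 1 held one there.

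The B-type cyclin genes cyb-2.1 and cyb-2.2 had no peak in any of the lists, relaxed ones included. The nearest IDR summit was 9858 bp from the 5′ end of cyb-2.1 and 17466 bp from that of cyb-2.2. These genes are close copies, 92.7% identical over an alignment from the first to the last annotated base and 66.2% over the 1000 bases upstream. Of the words of 36 bases, 88.9% in the window of cyb-2.1 and 86.4% in that of cyb-2.2 occurred once in the genome, against 52.9% and 55.3% within the genes themselves. The sources do not say how the authors handled reads with several mapping places, and the part of repeated sequence in the absence of peaks was not tested. Rounded to 3 digits, 100% of words were unique in the windows of the other members, except at cdk-2, where 91.1% were.

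**Figure D2:**
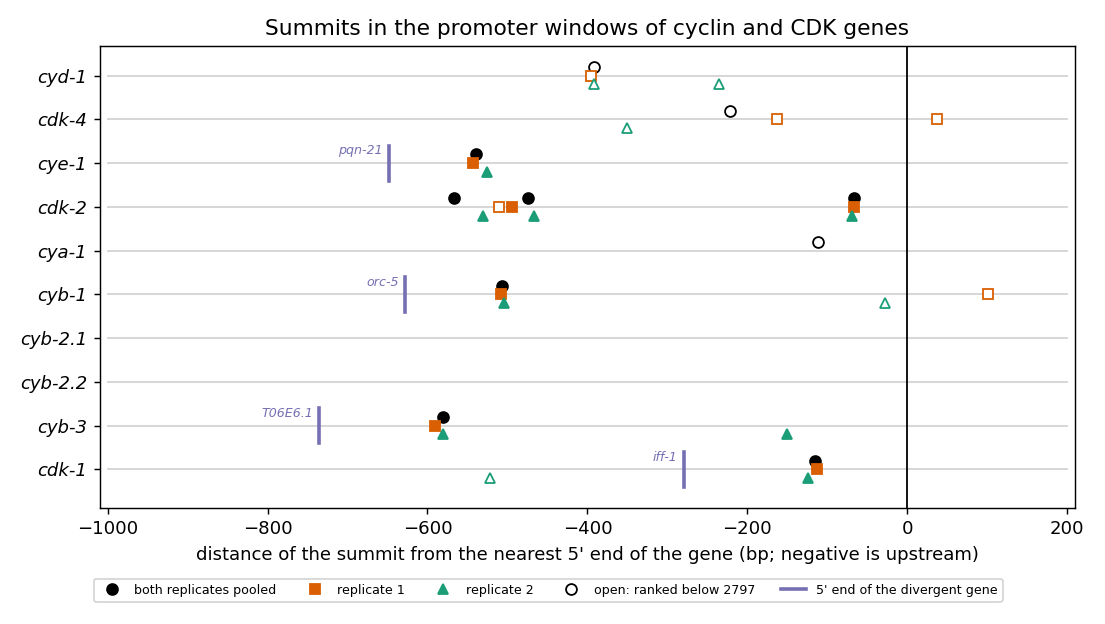
Summits in the window of each gene, by distance from the nearest 5′ end of that gene (bp, negative is upstream), for the pooled list (circles) and the replicates (squares and triangles), with filled symbols for the 2797 strongest peaks of a list and bars for the 5′ end of the divergent gene that shares an IDR summit. The strongest pooled summits of cye-1, cyb-1 and cyb-3 lie 507 to 580 bp upstream and closer to the bars. Weaker replicate summits of cyb-1 (101 bp downstream and 28 bp upstream) and cyb-3 (150 bp upstream) lie closer to the gene. The circle of cdk-2 at 567 bp and its replicate symbols at 511 and 531 bp belong to its internal 5′ end. The cyd-1 triangle at 235 bp likewise belongs to an internal 5′ end of cyd-1.

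Several bound members had their summit far upstream. In 3 of the 5 bound members the strongest summit lay 500 bp or more upstream, against 18% of all bound protein-coding genes, whose median was 222 bp upstream. All peaks lay in the window of another protein-coding gene too for 4 of the 5 bound members, and for 57.4% of all bound protein-coding genes. The distance between the 5′ ends of the paired genes was 648 bp at cye-1 and pqn-21, 628 bp at cyb-1 and orc-5, 735 bp at cyb-3 and T06E6.1, and 279 bp at cdk-1 and iff-1. With each summit given only to the nearest gene, 2 of the 10 members were bound (cdk-2 and cdk-1), against 10.2% of all protein-coding genes. A window of 500 bp upstream left the same 2, against 12% of all genes. Which gene of a divergent pair a summit acts on was not tested by these data.

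E2F motifs lay near the summits of 3 of the 5 bound members. With the whole match inside 100 bp of the strongest summit, cye-1 had 2 matches, centred 13 and 32 bp from it, cdk-2 had 1 at 16 bp and cyb-1 had 1 at 49 bp. The cyb-3 and cdk-1 summits had none within 100 bp. Over all 2797 IDR peaks, 23.1% had a match in the same window of 201 bases, and 24.1% of those in the window of a protein-coding gene had one. Among relaxed pooled peaks below the IDR list the share was 6.66%, and in the 201 bases that end at the 5′ end of each protein-coding gene it was 6.29%. None of the weak sites of cyd-1, cdk-4 and cya-1 had an E2F match, and the same members had a match when the summits of either replicate were used. A match is a stretch of letters and not a measured binding site.

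E2F matches were also counted over whole promoter windows, those near the summits included. Of the 10 members, 6 had a match between 1000 bp upstream and 200 bp downstream of the outermost 5′ end, against 30.3% of all protein-coding genes. These were the 5 bound genes and cyd-1, while cdk-4, cya-1, cyb-2.1 and cyb-2.2 had none. The cye-1 matches were only those near its summit, while cdk-2 and cyb-1 also had a match 364 and 131 bp from theirs. The cdk-1 window held 3 matches, all 468 bp or more from its summit, and 2 of these overlap. All lie 583 to 660 bp upstream of cdk-1, beyond the iff-1 5′ end that is 279 bp from that of cdk-1. They are thus not in the stretch between these 5′ ends. In cyb-3 the match lay 137 bp upstream of the 5′ end and 443 bp from the summit, and in cyd-1 it lay 65 bp upstream and 327 bp from the weak site.

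The CHR motif, which in worms and mammals is bound by the LIN54 family of DREAM subunits, was common in all the regions searched. Within 100 bp of the strongest pooled summit it was found at cye-1, cdk-2, cyb-3 and cdk-1, at the weak sites of cyd-1 and cya-1, and not at cyb-1 or cdk-4. Its share was 52.1% over all IDR peaks, 58.2% over the relaxed peaks below them and 56.2% over the windows that end at the 5′ ends of genes. Among bound members, cye-1 and cdk-2 had matches of both motifs near the summit, as did 15.6% of IDR peaks. The closest CHR match of a bound member was that of cdk-2, centred 2.5 bp from the summit, followed by cyb-3 at 13.5 bp and cdk-1 at 43.5 bp.

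**Figure D3:**
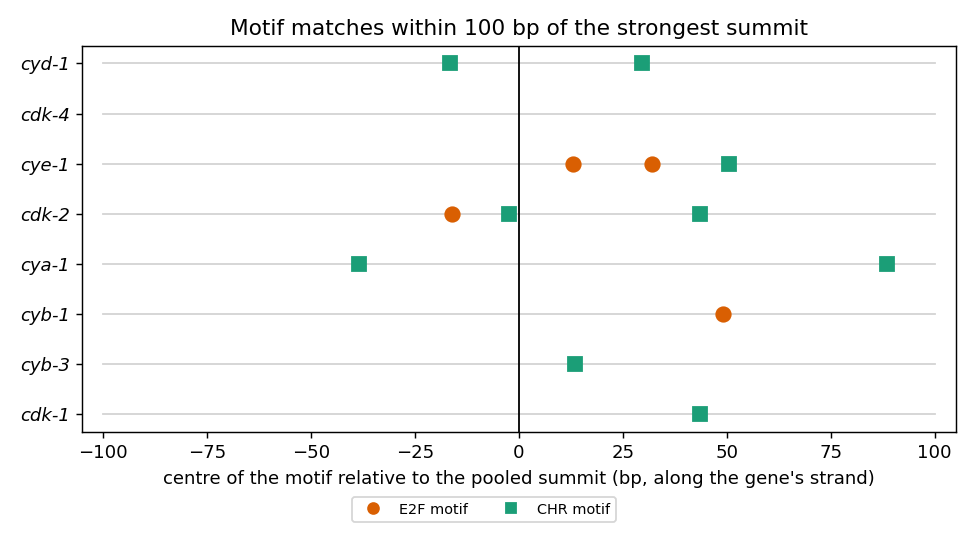
Centres of E2F (circles) and CHR (squares) matches relative to the strongest pooled summit of each gene that had one (bp, along the strand of the gene). E2F matches stand at cye-1, cdk-2 and cyb-1 only, and cdk-4 has no match of either motif.

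Cyclins and CDKs with other roles were also bound, with a lower median signal. Of 16 genes of this kind, such as those of the transcriptional and the neuronal CDKs, 10 were bound in the IDR list and 6 were not (cyh-1, cit-1.1, cit-1.2, cyy-1, cya-2 and pct-1), against 14.3% bound among all protein-coding genes. The strongest were cic-1, the cyclin C gene (signal 428.2, shared with strm-1), and cdk-5, which acts in neurons (262.6, shared with kel-3). They were followed by cdk-7 (170.7), the gene for the kinase of the general factor TFIIH, and cdk-9 (85.6, shared with hxk-2), the gene for the kinase of P-TEFb. The median signal of the strongest peak was 183.4 for the 5 bound cell cycle genes, against 58.5 for these 10, of which 3 lay above the median of all bound genes. An E2F match within 100 bp of the strongest summit was found for 3 of the 5 bound cell cycle genes and for 0 of these 10, against 23.1% of IDR peaks. That share counts every IDR peak, and not only the strongest of each gene. The strongest summit lay 500 bp or more upstream for 3 of these 5 (cye-1, cyb-1 and cyb-3) and for 0 of these 10. Every peak was shared with another protein-coding gene for 4 of the 5 and for 7 of the 10. The signals of cye-1, cyb-1 and cyb-3, and the E2F matches of cye-1 and cyb-1, belong to far upstream summits nearer to a divergent gene. No strongest summit of the 10 bound others lay more than 252 bp upstream. With a window of 500 bp upstream, 10 of the 16 others thus stay bound. The same window leaves 2 of the 10 cell cycle genes, against 12% of all protein-coding genes. Which gene a shared summit acts on was not tested, and no test of the difference was made.

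**Figure D4:**
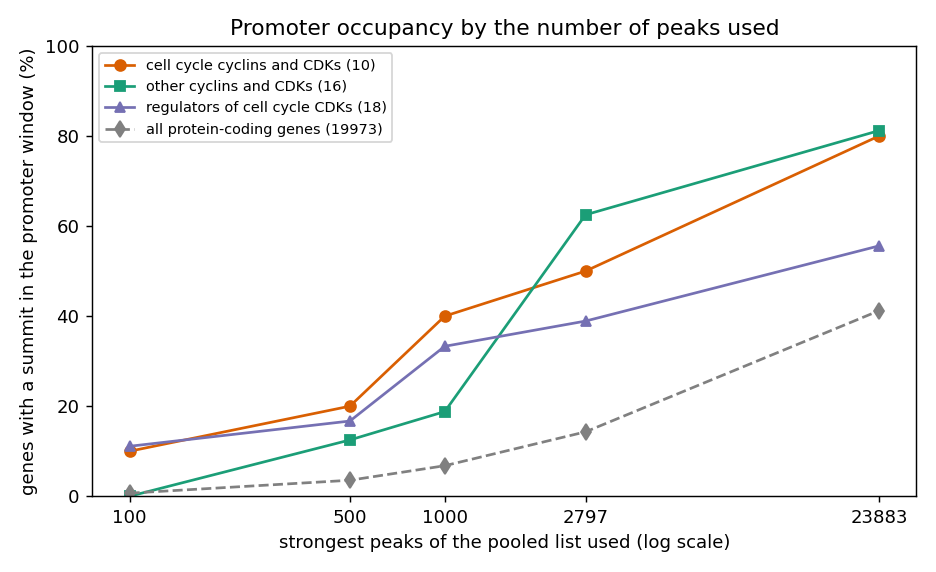
Percent of genes with a summit in the promoter window when the 100, 500, 1000, 2797 or all 23883 strongest peaks of the pooled list are used (log axis), for the 10 cell cycle cyclins and CDKs, 16 other cyclins and CDKs, 18 genes listed as regulators and all 19973 protein-coding genes. With 1000 peaks 4 of the 10 cell cycle genes and 3 of the 16 others were bound, and with 2797 peaks 5 of 10 and 10 of 16.

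The order of these lists changed with the number of peaks used. The 100 strongest pooled peaks reached 1 of the 10 cell cycle genes (cyb-1) and none of the 16 other cyclins and CDKs, against 0.686% of all protein-coding genes. With 500 peaks the counts were 2 of 10 and 2 of 16, against 3.55% of all genes. With 1000 peaks they were 4 of 10 and 3 of 16, against 6.78%. Over the whole pooled relaxed list they were 8 of 10 and 13 of 16, against 41.2%, and there both G1 genes and cya-1 counted as bound. Of the 18 genes listed as regulators of cell cycle CDKs and described below, 2 were reached with 100 peaks, 3 with 500, 6 with 1000 and 10 over the whole pooled list. The whole relaxed lists of the replicates gave 7 of 10 members each, against 46.6% of all genes in replicate 1 and 46.3% in replicate 2.

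Among 18 genes listed as regulators of the cell cycle CDKs, 7 were bound and 11 were not, against 14.3% bound among all protein-coding genes. The list also takes in the retinoblastoma and E2F-DP genes lin-35, efl-1, efl-2 and dpl-1, which are not direct regulators of CDKs. Of these, efl-1 and lin-35 were bound, so the values of this list are not those of CDK regulators alone. The bound ones with the strongest peaks were efl-1, an E2F gene (rank 9, shared with fbxa-90), wee-1.3, whose product inhibits CDK-1 (rank 24), lin-35 (rank 287, shared with vps-51) and cdc-14, a phosphatase gene (signal 133, rank 793, shared with ttc-4). The CDK inhibitor gene cki-2 had a weak IDR peak (signal 42.2) that ranked 1605 in replicate 1 and 3505 in replicate 2, so that the strongest peaks of replicate 2 gave 6 bound regulators, against 13.8% of all genes. The 7 bound genes of this list had a median signal of 133 for their strongest peak, and 6 of them lay above the median of all bound genes. An E2F match within 100 bp of the strongest summit was found for 4 of the 7 (cki-2, wee-1.3, fzy-1 and efl-1). The share was 3 of the 5 for the bound cyclin and CDK genes of the cell cycle, and 23.1% over all IDR peaks. The genes without an IDR peak were cki-1, cks-1, cdc-25.1, cdc-25.2, cdc-25.3, cdc-25.4, wee-1.1, fzr-1, cul-1, efl-2 and dpl-1.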

How the data were processed

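ChIP-seq peak lists of 2 biological replicates were analysed. Per the deposited file listing, the authors called relaxed peaks for each replicate and for both pooled, each against 1 control file, and derived the IDR list from these 3. Not given in the sources used here are the aligner, the caller and the IDR cutoff. The deposited signal values of the authors (peak strength, scale not stated) were ranked within a list, and the deposited −log10 q values, in the narrowPeak column order, were only quoted. The lists held 2797 (IDR), 23883 (pooled) and 30000 (each replicate) peaks, and the IDR peaks were the strongest of the pooled list. No read counts stand in them, so depth is unknown and no interval that needs it is given.

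Coordinates are 1-based on ce11, whose build matches the Ensembl release 115 annotation and the RefSeq genome of WBcel235. A summit is the deposited start plus the deposited offset. A summit in several windows counts for each gene. With trans-splicing, transcription can start upstream of an annotated 5′ end. Motifs and words of 36 bases were counted in the genome, and assignment of summits and motif search were tested on simulated data. Identity came from a global alignment (Biopython 1.88). Tables were made with pandas 2.3.3 in Python 3.11.15. All values are descriptions without tests. The genes named are the 10 members, coding neighbours that share their summits, and, for 2 further lists, the 4 bound genes with the strongest peaks and those without an IDR peak. Members and lists were chosen with earlier results of these data known, and cki-2 and fzy-1 were named after their values were seen.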

Additional observations from a re-analysis of the deposited data

How the results depend on the processing

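The count of 5 bound members was the same without either replicate, that is, with the 2797 strongest peaks of the other. The IDR list was itself chosen by agreement between the replicates, so this is not an independent check. The count was also the same with a window of 2000 bp upstream and 500 bp downstream (17.9% of all protein-coding genes bound). Protein-coding transcripts only, and peak intervals in place of summits (15% of all genes), left it the same too. It was 4, without cdk-2, with IDR peaks above the median signal (8.88% of all genes). With 500 bp upstream (12% of all genes), and likewise with the nearest gene only (10.2%), it was 2, with 1 S gene (cdk-2) and 1 M gene (cdk-1). The other 3 summits lie more than 500 bp upstream and nearer to a divergent gene. Above the median signal 1 S gene was bound. With the whole pooled relaxed list 8 members were bound, against 41.2% of all genes. That of either replicate gave 7, against 46.6% of all genes in replicate 1 and 46.3% in replicate 2. Each of these relaxed lists counted 2 G1 genes as bound, while the G1 count was 0 under the other settings named above. E2F matches near the strongest summit were found for 3 members, for 2 with the whole match inside 50 bp (the cyb-1 match, centred 49 bp away, reaches past it), and for 3 within 150 bp or without either replicate. The cyb-1 signal stood at percentile 96.8 of the IDR list, at 97.1 without replicate 1, at 96.5 without replicate 2 and at 96.8 on ce10. The scale of the signal and the unknown depth limit comparisons to ranks.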

Other observations

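Peaks inside the cyclin genes were looked at after the values of the promoter windows were seen. The cye-1 gene held an IDR peak in an intron, with its summit at I:6781758, 959 bp downstream of the 5′ end and so outside the promoter window. Its signal was 56.8 and its rank 1687 in the pooled list, 1531 in replicate 1 and 1676 in replicate 2, with summits 24 and 23 bp from the pooled one. The cyd-1 gene, the longest of the members (II:12980591 to II:12993117), held 5 pooled relaxed peaks in its introns and no IDR peak. The strongest of these, at II:12991721, had a signal of 25.0 and rank 3310, next to rank 3324 of the upstream site, and it was matched within 100 bp in replicate 2 (rank 2904) but not in replicate 1. The genes cdk-4, cyb-2.1, cyb-2.2 and cdk-1 held no peak between their first and last annotated base in the pooled relaxed list. In that list cya-1, cyb-1 and cyb-3 held 1 each (ranks 9280, 19605 and 19828), outside the IDR list. These counts were not adjusted for gene length.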
